A study of Homo sapiens with 74 samples.

Results

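ZNF593 is a small C2H2 zinc-finger protein and the human counterpart of the yeast protein Bud20, a shuttling factor that takes part in the export of large ribosomal subunits from the nucleus. It has also been described as a modulator of DNA binding by the octamer-binding protein OCT2. Cut&Run uses an antibody to bring micrococcal nuclease to a tagged protein on chromatin and sequences the DNA fragments that the nuclease releases, whether the protein contacts that DNA itself or through partners. The regions described here are the peaks of the ZNF593 libraries, called against a mock immunoprecipitation (mock IP).

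The members are all peaks of the 2 lists labelled ZNF593, with 626 peaks in replicate 1 and 1289 in replicate 2, or 1915 of the 92122 peaks in the 72 lists of 36 zinc-finger proteins (ZFPs). The cells were HEK293T, a transformed human embryonic kidney line. Each ZNF593 replicate was 1 well of cells transfected with a plasmid that drives ZNF593 with a C-terminal V5 tag from an EF1-alpha promoter, taken 48 h later without crosslinking for Cut&Run with a V5 antibody. The mock IP used the same antibody on cells that were not transfected, so transfection, the plasmid and the overexpressed protein all separate the libraries from their control. All peaks had a q-value of at most 0.05, and fold is the pile-up of fragments at the summit over the mock IP level expected there. The labels give a single nominal depth for every sample, but the totals reached by each library are unknown here, so a difference between the lists in peak number cannot be set against depth, and because no source used here names the batches, no comparison could be repeated within them.

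The sequences below carry the main observations and were read from hg38 on the plus strand. The first spans the genomic start of the ZNF593 open reading frame (ORF) that the study lists for its plasmid, with the ORF in capitals, because both ZNF593 peaks there began at its first base.

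ZNF593 ORF start, chr1:26170008-26170077: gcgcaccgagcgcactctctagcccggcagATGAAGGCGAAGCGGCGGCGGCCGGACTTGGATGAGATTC

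The next set shows the summits and 50 bases on either side of promoter regions called in both replicates, chosen for high folds or for shared functions, with the motif words named later in capitals.

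NFE2L2, chr2:177263607-177263707: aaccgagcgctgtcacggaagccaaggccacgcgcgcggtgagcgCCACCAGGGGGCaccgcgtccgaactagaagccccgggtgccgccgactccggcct
CHD2, chr15:92904301-92904401: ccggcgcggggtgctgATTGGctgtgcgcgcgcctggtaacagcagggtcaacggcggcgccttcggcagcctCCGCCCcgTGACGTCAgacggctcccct
PER1, chr17:8156511-8156611: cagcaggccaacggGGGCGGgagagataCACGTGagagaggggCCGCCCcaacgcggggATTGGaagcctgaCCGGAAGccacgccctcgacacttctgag
CIC, chr19:42268796-42268896: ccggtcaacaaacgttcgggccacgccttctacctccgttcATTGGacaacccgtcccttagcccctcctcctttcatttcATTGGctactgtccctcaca
SIN3A, chr15:75451845-75451945: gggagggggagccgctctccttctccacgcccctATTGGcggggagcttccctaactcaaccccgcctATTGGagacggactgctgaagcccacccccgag
SAP30, chr4:173369844-173369944: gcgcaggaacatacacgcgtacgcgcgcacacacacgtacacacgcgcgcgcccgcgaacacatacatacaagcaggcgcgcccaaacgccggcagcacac

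The last set shows repeated DNA that made up much of the regions in both lists. Capitals mark ATTCC or GGAAT pentamers in the satellite-like window and an SP/KLF word in the MADCAM1 window, and the windows at the rRNA genes are shown in lower case throughout.

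inside MADCAM1, chr19:491862-491962: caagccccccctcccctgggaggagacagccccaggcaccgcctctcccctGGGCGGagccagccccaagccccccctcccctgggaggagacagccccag
inside AK3, chr9:4713955-4714055: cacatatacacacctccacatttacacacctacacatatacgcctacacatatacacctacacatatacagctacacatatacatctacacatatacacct
satellite-like, chr1:143195138-143195238: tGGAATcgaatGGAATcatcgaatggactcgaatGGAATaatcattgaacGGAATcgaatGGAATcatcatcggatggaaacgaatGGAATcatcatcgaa
18S rRNA, chr21:8254966-8255026: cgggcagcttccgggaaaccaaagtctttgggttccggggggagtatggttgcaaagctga
28S rRNA, chr21:8259571-8259631: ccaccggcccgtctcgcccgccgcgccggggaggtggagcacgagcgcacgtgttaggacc

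The strongest peak of each list lay on ZNF593 itself. In replicate 1 it covered chr1:26170038-26170825 with a fold of 2318, and in replicate 2 chr1:26170038-26170829 with a fold of 2450. These coordinates take in the end of exon 1, all of exon 2 and most of exon 3 of ZNF593 (the gene spans chr1:26169908-26170873), with both introns. The plasmid ORF is 348 bases long and lacks the first 18 codons of the 134-codon reference coding sequence. Its first base is at position 26170038, the first base of both peaks, and its last base is at position 26170713, so the peaks ran 112 and 116 bases past it. The plasmid and the chromosomal copy cannot be told apart over these exons.

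The other peak of this height lay on EEF1A1, whose first exon and first intron are part of the EF1-alpha promoter of the plasmid. Its fold was 2262 in replicate 1 and 2203 in replicate 2. In both replicates it ran beyond the first exon (73521000-73521032), to position 73521303. A peak on EEF1A1 was present in all 72 lists, with folds between 6.98 and 7903 and a median of 2407, and the ZNF593 lists ranked 39 and 41 among them. Exons of the genes for the other ZFPs held no ZNF593 peak apart from CTCF (5.76) and ZNF706 (4.32), both in replicate 2.

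Away from these 2 loci, enrichment was modest. The peaks of both lists merged into 1543 regions, and 348 of them (22.6%) contained peaks of both replicates that overlapped by at least 1 bp. In replicate 1, 360 of 626 peaks overlapped a peak of replicate 2 (57.5%, exact 95% binomial interval 53.5 to 61.4%), and in replicate 2, 360 of 1289 overlapped a peak of replicate 1 (27.9%, 25.5 to 30.5%). Among the 346 regions in both lists other than ZNF593 and EEF1A1, the lower of the 2 folds had a median of 3.48 and reached at most 13.1. It was 10 or more in 9 regions, between 5 and 10 in 89 and under 5 in 248. The 2 folds lay within 1.5 times of each other in 307 of the 346 regions (88.7%). Such intervals and counts cover counting error only.

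**Figure D1:**
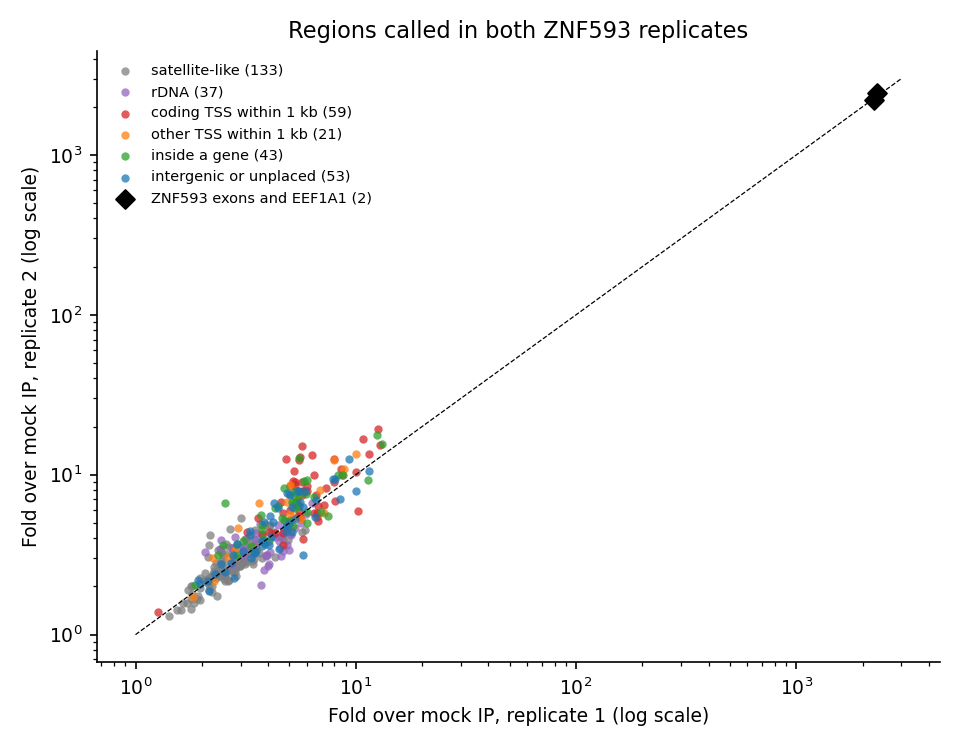
Fold over mock IP in replicate 1 (x axis, log scale) and replicate 2 (y axis, log scale) for the 348 regions called in both ZNF593 replicates, coloured by kind of region, with the line of equal fold dashed. The ZNF593 exons and EEF1A1 stand at 2203 or more in both replicates, and all other regions have a lower fold of at most 13.1.

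The 348 regions fell into 7 kinds, assigned in the order given here. ZNF593 and EEF1A1 made up 2. Satellite-like regions, with at least 5 ATTCC or GGAAT pentamers within 100 bp of a summit, made up 133 (38.2%). Regions that matched ribosomal DNA made up 37 (10.6%). Regions within 1 kb of a transcription start site (TSS) of a protein-coding gene made up 59 (17.0%), and 21 more (6.03%) were within 1 kb of the TSS of another kind of gene. The remaining regions lay inside a gene (43) or in intergenic or unplaced sequence (53). Satellite-like and ribosomal DNA together therefore held 170 regions, or 48.9%.

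Regions called in a single replicate had another make-up. Of the 266 regions of replicate 1 alone, 22.9% were satellite-like and 21.4% lay within 1 kb of a protein-coding TSS. Of the 929 regions of replicate 2 alone, 7.21% were satellite-like and 35.7% lay within 1 kb of a protein-coding TSS. These are shares of 1 list each and were given no test. In the whole lists, 26.04% of the peaks of replicate 1 and 39.3% of those of replicate 2 lay within 1 kb of any TSS, and 31.9% and 16.1% were satellite-like, and the exact binomial intervals of the replicates did not overlap in either measure.

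**Figure D2:**
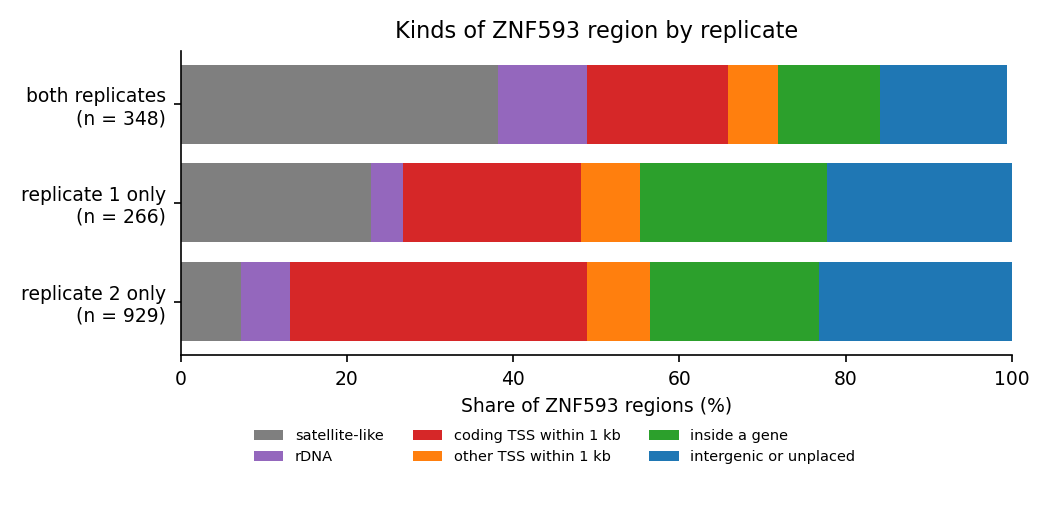
Share of ZNF593 regions (x axis, %) of each kind among the 348 regions in both replicates and among those found in replicate 1 only (n = 266) or replicate 2 only (n = 929); the 2 regions at ZNF593 and EEF1A1 are not drawn. Satellite-like regions take 38.2% of the regions in both replicates and 7.21% of those in replicate 2 only.

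Promoter regions had the highest median fold of the kinds apart from ZNF593 and EEF1A1. The 59 regions touched the TSS neighbourhoods of 67 protein-coding genes, 7 regions lay between TSSs on opposite strands, and 28 covered a TSS. At the level of genes, 72 of 20020 protein-coding genes had a peak within 1 kb of a TSS in both lists (0.36%), against 132 in replicate 1 (0.659%) and 464 in replicate 2 (2.32%). The lower fold ranged from 1.27 to 12.8 with a median of 5.51, and replicate 2 had the higher fold in 46 of the 59 regions. The lowest value belonged to the only region on the mitochondrial genome, at MT-CO2. That region was counted by annotated gene starts alone, and its summit lay in a coding exon.

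NFE2L2, which encodes the oxidative stress regulator NRF2, led the promoters when ranked by the lower of the 2 folds. Its region at chr2:177263573-177263917 covered a TSS and had folds of 12.8 in replicate 1 and 15.4 in replicate 2. The next was CHD2, a chromodomain helicase, where the region at chr15:92903786-92904473 had folds of 12.6 and 19.2. The region 3 bp from a TSS of ELAVL2, a neuronal RNA-binding protein, had folds of 11.5 and 13.4. All 3 had a lower fold more than 2 times the median of the promoter group.

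A fold of 10 or more in both lists was also reached by TOMM20 and PER1. TOMM20, a receptor of the outer mitochondrial membrane translocase, had folds of 10.8 and 16.6 in a region 18 bp from its TSS. This region had the smallest q-values of the promoter group in both lists. As −log10 they were 38.2 in replicate 1 and 71.4 in replicate 2, against 19.0 and 25.3 at NFE2L2. PER1, a core component of the circadian clock, had folds of 10.0 and 10.4. TEF, a PAR bZIP factor that follows the clock, had folds of 8.58 and 10.9.

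The 20 highest promoters also included those of POLR1B, CARM1, CIC and TFDP1. POLR1B, the second-largest subunit of RNA polymerase I, had folds of 6.33 and 13.3. CARM1, an arginine methyltransferase, had folds of 6.45 and 9.96. CIC, a transcriptional repressor, had folds of 6.58 and 7.45, and TFDP1, the partner of E2F factors, had 6.73 and 6.403. Fold in replicate 2 exceeded that in replicate 1 for the first 3 and not for TFDP1.

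Among the rest of the 20 highest, DGCR8, which processes primary microRNAs with DROSHA, had folds of 6.03 and 8.44. RRM2B, the p53-inducible subunit of ribonucleotide reductase, had folds of 7.95 and 8.94. CNNM2, which takes part in renal magnesium handling, had folds of 7.95 and 12.5. TMEM216, a protein of the ciliary transition zone, had 8.69 and 9.96, in a region 514 bp from the TSS. The other members were C14orf93 (7.35 and 8.20), MBLAC1 (8.03 and 6.86), ARHGAP28 (7.17 and 6.48), NRXN3 (6.02 and 7.95) and RAB40B (5.82 and 7.84), with a lower fold that spanned 5.82 to 7.35. C14orf93 had a further region in both lists, with folds of 5.57 and 12.9.

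The region counted for the protein-coding gene GSTA4, 379 bp from its TSS, lay 62 bp from RN7SK, the gene of the 7SK RNA that holds the elongation factor P-TEFb inactive and is made by RNA polymerase III. Its folds were 10.2 in replicate 1 and 5.96 in replicate 2. The same place was called for 24 other ZFPs.

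SIN3A and SAP30, which encode subunits of 1 histone deacetylase complex, both had promoter regions in both lists; they were picked out after the values were seen. SIN3A had folds of 5.69 and 8.94 and SAP30 had 5.69 and 15.1. The SAP30 values differed by more than 2 times between the replicates, whereas the SIN3A values were closer. SAP30 was also the promoter called for the fewest other ZFPs, with 1.

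Genes for ribosome biogenesis, the process that ZNF593 is known for, were counted in several lists, with no test. Of 89 cytosolic ribosomal protein genes, 1 had a region in both lists, RPS19, a protein of the small subunit, with folds of 5.02 and 8.54 (1.12% of the list against 0.36% of all protein-coding genes). Of 59 genes for 60S assembly and export only ZNF593 itself was called, and of 49 genes for small nucleolar ribonucleoproteins and small subunit assembly none was called in either list. Over all protein-coding genes the shares were 0.659% in replicate 1 and 2.32% in replicate 2, so lists of this size can hold few or none. No host gene of small nucleolar RNAs was called in both lists, while 1 of 20 was in replicate 1 (5.0%, against 0.659% of all protein-coding genes) and 2 in replicate 2 (10.0%, against 2.32%).

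Over 18 lists with 1284 genes, 6 genes were called in both replicates, namely ZNF593, EEF1A1, RPS19, RN7SK, RRM2B and H2AC19, a histone H2A gene that has near-identical copies nearby (folds 4.69 and 3.63). Of 28 heat shock chaperones, 4 were called in replicate 2 (14.3%, against 2.32% of all protein-coding genes) and none in replicate 1. HSPD1 and HSPE1, whose TSSs lie close together, shared 1 peak, with a fold of 6.86, so the 4 genes stand for 3 peaks. Of 57 splicing factors and hnRNPs, 4 were called in replicate 2 (7.02%, against 2.32%) and none in replicate 1. No gene of the integrated stress response (24), the interferon response (30) or the HOX clusters (39) was called in either list. Of 54 genes for DNA replication and the cell cycle, 1 was called, in replicate 1 (1.85%, against 0.659%). With 0.659% of all protein-coding genes called in replicate 1 and 2.32% in replicate 2, lists this short can hold none. These absences are therefore not read as results. These counts were given no test, and over all lists 0.467% of the genes were called in both replicates, beside 0.36% of all protein-coding genes. The 6 genes behind the first share include ZNF593 and EEF1A1, whose sequence the plasmid carries, and RN7SK, which is not protein-coding. The first share is therefore not read as an excess.

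Of 19 measured genes transcribed by RNA polymerase III, 3 were called in replicate 1 (15.8%, against 0.659% of all protein-coding genes) and 4 in replicate 2 (21.1%, against 2.32%), with RN7SK alone in both. RN7SL2 and RN7SL1, which encode near-identical copies of the RNA of the signal recognition particle, each had the strongest peak found in a single list, RN7SL2 with a fold of 21.1 in replicate 1 and RN7SL1 with 20.6 in replicate 2. Because these copies share sequence, a short read can be placed on either. The place at RN7SL2 was called for 23 other ZFPs and that at RN7SL1 for 27. In both lists, 3 regions lay within 500 bp of tRNA genes. On chromosome 1 they were at TRE-CTC1-3 and TRG-TCC2-3 (4.61 and 5.33) and at TRE-CTC1-5 and TRG-TCC2-5 (5.20 and 5.34), which are copies of 1 repeat unit with identical sequence over the aligned bases. On chromosome 12 the region at TRA-TGC4-1 and TRD-GTC2-10 had folds of 5.87 and 7.90.

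The promoter sequences were rich in G and C, with a median of 65.7% within 100 bp of the summit, beside 64.2% in the windows from 150 bp before to 50 bp after the starts of 22199 protein-coding promoters of RefSeq (GRCh38.p14 build). Words were searched on both strands and none of them contains another. The SP/KLF word GGGCGG was present in 36 of the 59 windows (61.02%, interval 47.4 to 73.5%, against 50.6% of all promoters). The CCAAT box, written CCAAT, was present in 19 (32.2%, 20.6 to 45.6%, against 27.2%), and the E-box CACGTG in 7 (11.9%, 4.91 to 22.9%, against 6.38%). All 3 intervals include the share over all promoters.

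The distance of the nearest CCAAT word from the summit varied. Among the 20 highest promoters, 8 held the word, at 0 bp in C14orf93, 3 bp in CNNM2, 7 bp in CIC, 11 bp in PER1, 17 bp in ELAVL2, 32 bp in CHD2, 57 bp in RAB40B and 64 bp in DGCR8. Within 50 bp of the summit 25.4% of the windows held it (14.98 to 38.4%), beside 9.98% of promoters in the window from 50 bp before to 50 bp after the start. The latter window leaves out the bases farther upstream where this word often lies, so the values come from windows placed differently. The remaining words were found in few of the 59 windows within 100 bp of the summit. The ETS word CCGGAAG was in 6 of them (10.2%, against 10.8% of all promoters), and the NRF1 word GCGCATGC was in 2 (3.39%, against 3.17%). The CRE word TGACGTCA was in 1, which was the window of CHD2 printed above. The AP-1 word TGACTCA was also in 1 window, that of ETFDH. The TATA word TATAAA was in the window of NFE2L2 and in no other, against 6.59% of all promoters. The YY1 word AAGATGGC and the ZBTB33 word CTCGCGAG were found in none. The core of the CTCF motif was added after the sequences were seen. The NFE2L2 window printed above holds it in capitals, and no other of the 59 windows does (1.69%, against 0.284% of all promoters). The CCAAT and E-box words of PER1 and the paired CCAAT words of CIC and SIN3A, read as ATTGG on the printed strand, can be seen in their windows. The printed SAP30 window has none of the words.

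Regions inside genes, away from any TSS, were often tandem repeats. A window was counted as tandem where the sequence within 100 bp of the summit matched itself at 70% or more of positions after a shift of up to 100 bp, a measure chosen after the sequences were seen. Of the 43 regions inside a gene, 22 were tandem (51.2%, 35.5 to 66.7%), as were 16 of 53 intergenic or unplaced regions (30.2%). Of the 59 promoter regions 4 were tandem (6.78%), and of all 22199 promoters 43 were (0.194%). Among regions inside a gene in replicate 1 only, 18 of 60 were tandem (interval 18.85 to 43.2%). In replicate 2 only, 79 of 189 were (41.8%, 34.7 to 49.2%). Both intervals overlap that of the 43 regions, so the trait was not confined to regions in both lists. Its share over windows inside genes in general was not measured. The tandem units of the 22 regions inside genes in both lists were between 6 and 88 bp long.

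MADCAM1, an adhesion molecule of the gut vasculature, had the highest of these. Its region lay inside the gene, 2455 bp from the TSS, with folds of 12.5 and 17.7. The sequence within 100 bp of its summit, of which the printed window is a part, repeats with a unit of 66 bp at 95.6% identity. A region inside AK3, a mitochondrial adenylate kinase, had folds of 11.4 and 9.29 and a unit of 16 bp at 76.8%. MAD1L1, a spindle checkpoint gene picked out after the values were seen, had folds of 5.96 and 7.54 in a region whose window also passed the measure. The region with the highest lower fold outside ZNF593 and EEF1A1, chrX:2463870-2465182 in DHRSX, had folds of 13.1 and 15.6 and did not pass the measure, with a best self-match of 40.7%. It lies in the pseudoautosomal region, which is present on both sex chromosomes. A second region of DHRSX had folds of 8.76 and 9.89. CFAP74, a gene for an axonemal protein, had folds of 8.28 and 9.93 over a coding exon.

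Several regions outside satellites were copies of each other. Of 176 regions that were not at ZNF593 or EEF1A1, satellite-like or ribosomal DNA, 63 fell into 17 families whose members aligned at 85% identity or more over at least 100 bp and 50% of the shorter member. The largest family had 13 regions around DUX4-like repeats and ROCK1P1, with lower folds from 1.72 to 3.44. A family of 10 on chromosome 21 and on unplaced contigs had lower folds from 4.27 to 10.6, the latter at chr17_GL000205v2_random:87766-90021. A family of 5 on chromosome 15, between 84229924 and 85235310, had lower folds from 4.37 to 9.35. A family of 3 on chromosome X, near DANT1 and SUMO2P21, had folds from 2.88 to 5.145. Fold at 1 member of a family is not independent of that at its copies, since short reads can be placed on any of them.

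Ribosomal DNA is of interest because ZNF593 is linked to the ribosome, and its peaks were placed on a single unit of 44187 bp that starts with the 45S transcript on chromosome 21. The 37 regions in both lists lay on chromosome 21 (17), chr22_KI270733v1_random (9), chrUn_GL000220v1 (10) and chromosome 1 (1), at copies of the unit whose reads cannot be assigned separately. On the unit their peaks fell into clusters, the largest of them in 18S and 28S. In the 18S gene, 14 peaks, 8 from replicate 1 and 6 from replicate 2, had summits between 4755 and 4802 bp with folds from 2.69 to 5.67. In the 28S gene, 14 peaks had summits between 10431 and 10592 bp (2.44 to 4.92) and 18 between 12025 and 12794 bp (2.72 to 6.67), each with the same number from both replicates.

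**Figure D3:**
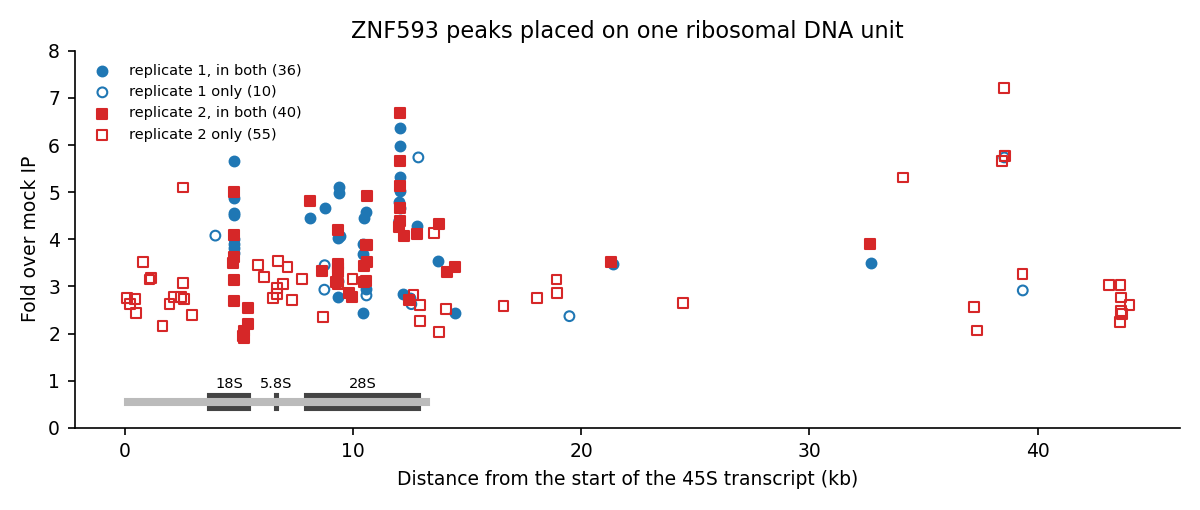
ZNF593 peaks that match ribosomal DNA, by distance of the summit from the start of the 45S transcript (x axis, kb) and fold over mock IP (y axis); filled symbols are peaks in both replicates and open symbols peaks of 1 replicate, with matches elsewhere in the genome included. Most filled symbols lie over 18S and 28S, and the transcribed spacers hold open symbols of replicate 2 alone.

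The lists differed in where on the unit these peaks lay. In replicate 1, 9 peaks had their summit in 18S, 30 in 28S and 7 in the intergenic spacer, and none in the transcribed spacers or 5.8S. In replicate 2 the numbers were 11, 31 and 28, with 22 in the transcribed spacers and 3 in 5.8S, none of which overlapped a peak of replicate 1. These counts include 3 peaks of replicate 1 and 6 of replicate 2 that matched the unit but lay on other chromosomes than chromosome 21 and the contigs above, among them 1 and 5 of the spacer peaks. On chromosome 21 and those contigs the highest fold was 6.35 in replicate 1 and 6.67 in replicate 2. The peaks of the 18S and 28S clusters were called for between 21 and 30 other ZFPs, so these places were shared widely.

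The pentamer ATTCC is the unit of human satellites II and III, arrays best known from pericentromeric DNA. The 133 satellite-like regions were on chromosome 4 (40), chromosome 1 (20), chromosome 10 (12), chromosome 20 (11) and other chromosomes and contigs. Their lower fold ranged from 1.30 to 5.29 with a median of 2.57, below the median of the promoter group. The highest, on chromosome 1, had folds of 5.63 and 5.29. Of the 133, 110 were called for at least 10 other ZFPs, with a median of 23 and a maximum of 35.

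Sharing with the other lists was near complete. Of the 348 regions, 347 overlapped a peak of at least 1 other ZFP, and 233 overlapped those of 10 or more of the other 35. The same counts were not made for regions in both lists of the other ZFPs, so they are not read as particular to ZNF593. Over all peaks, 84.99% overlapped a peak of another ZFP for ZNF593, against a mean of 80.3% for the other 35. Of those 35, 13 had a higher share. The 1 region with a peak of no other ZFP was intergenic, at chr8:12449458-12449750, 13052 bp from FAM86B2, a member of a duplicated gene family, with folds of 6.52 and 5.46. Its window was a tandem repeat, with a unit of 40 bp at 92.55% identity. When another ZFP was counted only where both of its replicates had a peak, 28 regions had none, among them the promoters of SAP30, MBLAC1, ARHGAP28, TWF2, DPYSL4, CETN2, LAP3 and H2AC19. Of the regions in a single list, 83 of 266 (31.2%) for replicate 1 and 211 of 929 (22.7%) for replicate 2 had a peak of no other ZFP.

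**Figure D4:**
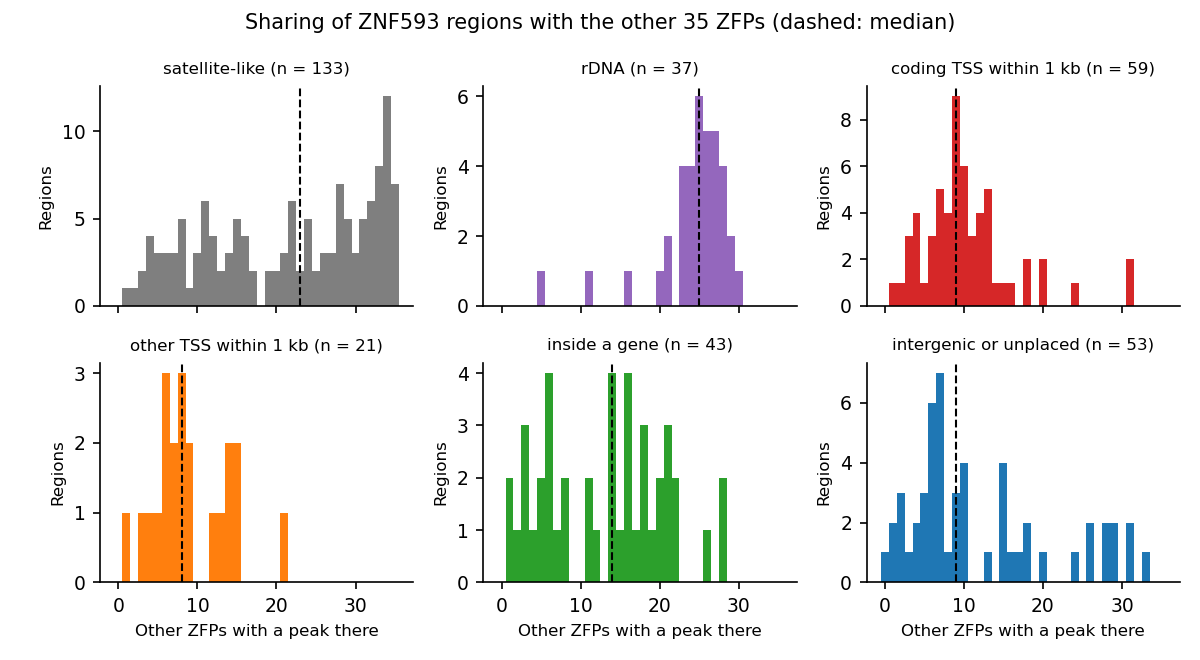
Number of other ZFPs, of 35, with a peak on each ZNF593 region in both replicates (x axis) against the number of regions (y axis), 1 panel for each kind of region, with the median dashed. The medians are 23 for satellite-like regions, 25 for rDNA and 9 for promoters.

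Promoter regions were shared with fewer ZFPs than the repeats. A median of 9 other ZFPs had a peak on a promoter region, 9 regions had 1 to 4, 22 had 5 to 9 and 28 had 10 or more. NFE2L2 was called for 18 other ZFPs, POLR1B for 20, PER1 for 14, TOMM20 for 9, CHD2 for 8 and ELAVL2 for 4. At the upper end ADAP1 and MUC3A, whose windows are tandem repeats, were called for 31 each. So were a region on chrUn_GL000214v1 (folds 4.22 and 5.06) and one at chr17:24188153-24188785 (5.76 and 3.16). An rDNA region at chr21:8210549-8211418 was called for 30, and regions on chrUn_KI270751v1 (3.75 and 3.58) and chrUn_GL000220v1 (3.81 and 2.54) for 29 each. Satellite-like regions are left out of this order. The region inside AK3 was called for 1 other ZFP, the fewest among the 8 highest regions away from a TSS.

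ZNF22 had peaks on 53 of the 59 (89.8%) and APEX2 and CISD1 on 52 and 51, and each of these 3 had a peak within 1 kb of a TSS of at least 25.9% of protein-coding genes. MAZ, a factor that binds G-rich DNA, had peaks on 36 of the 59 (61.02%), and its lists reached 262 protein-coding genes (1.31%). Of the 59 promoter regions, 18 were in MAZ replicate 1 and 34 in replicate 2. BRCA1 likewise had peaks on 20 of the 59 (33.9%) with 226 genes (1.13%). ZNF574, with 32 genes (0.16%), had 3.

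Over all 348 regions MAZ had the largest share of the 35 other ZFPs. Its peaks overlapped 278 regions (79.9%), and 33.3% of its own 1450 peaks lay on them. By list, 187 of the 348 regions were in MAZ replicate 1 and 264 in replicate 2. CISD1 followed with 240 regions (69.0%, and 3.35% of its own 11335 peaks) and GTF3C4 had 186 (53.4%, and 42.1% of its own 885). Some ZFPs with peak totals near that of MAZ shared nearly as much. ZNF706 had 219 regions (62.9%, and 32.75% of its own 1267) and ZNF800 had 219 (62.9%, and 28.5% of 1384). RNF14 had 209 (60.1%, and 26.3% of 1546), while BRCA1 had 176 (50.6%, and 23.7% of 1269). ZC3H3 had 156 (44.8%, and 11.9% of 1330). The lists differ in size, and 52.6% of the 371 peaks of MAZ replicate 1 and 26.7% of the 1079 of replicate 2 were shared. MAZ replicate 1 also held a peak that began at the first base of the ZNF593 ORF, with a fold of 14.7. MAZ replicate 2 had none there, and what this peak has to do with the sharing was not tested. Each list was set against the mock IP of its batch, and no source used here says which lists had the same mock IP, so the overlaps are given as counts with no test.

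Set beside the other ZFPs as a whole, the ZNF593 lists lay within the range of the others in 4 measures. Over the 2 replicates 32.6% ± 9.35 (SD, n = 2) of the peaks lay within 1 kb of a TSS, against a mean of 33.4% over the other 35 ZFPs. The share of peaks found in both replicates was 42.7% ± 20.9 against 37.6%, and the share of satellite-like peaks was 24.0% ± 11.2 against 27.1%. The share that overlapped a peak of another ZFP was 84.99% ± 2.03 against 80.3%. Exact permutation tests over ZFPs (two-sided, 1 ZFP against 35) gave p = 1.0, 0.889, 0.917 and 0.639 in this order, and every Benjamini-Hochberg adjusted p over the 4 measures was 1.0. The smallest p this design allows is 0.0278, and a p above the threshold does not show that ZNF593 equals the rest. Other ZFPs spanned 6.93 to 74.5% for the TSS share and 1.01 to 58.6% for the satellite share. TRIM55 and ZMAT5, each with a replicate in which the EEF1A1 fold was under 10, had the lowest replicate shares.

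**Figure D5:**
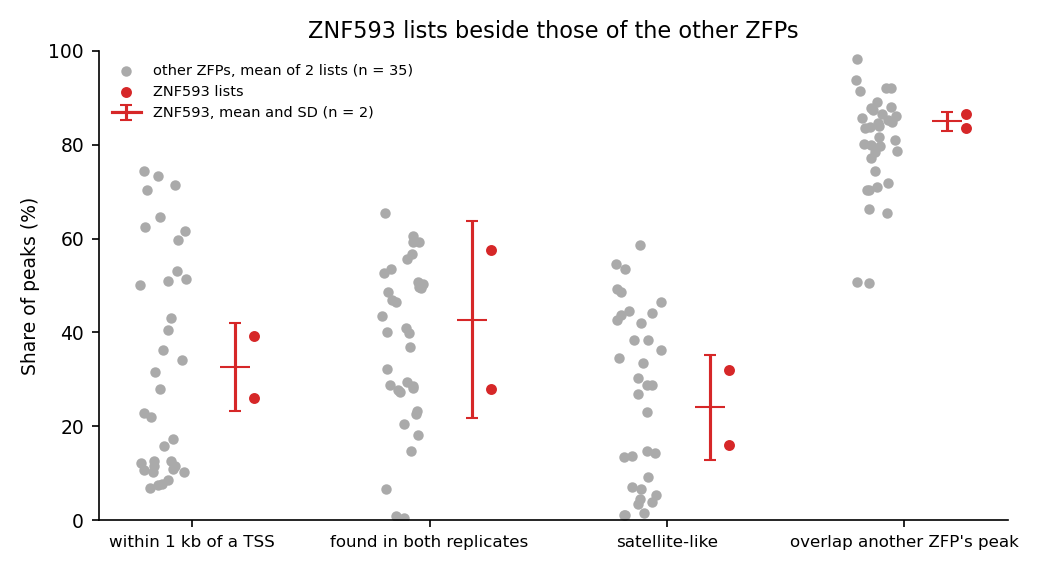
Share of peaks (y axis, %) in 4 measures for the other 35 ZFPs (grey, mean of 2 lists each) and for ZNF593 (red points for the 2 lists, bar for mean and SD, n = 2). ZNF593 lies inside the range of the other ZFPs in all 4 measures.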

How the data were processed

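Peaks were measured by Cut&Run in HEK293T cells. Per the labels and the methods, the authors trimmed reads with Trimmomatic 0.36, aligned them to hg38 with Bowtie2 2.3.5.1, discarded PCR duplicates using Picard 0.1.8 and ran MACS2 2.2.7.1 on every library with its batch's mock IP as control. The deposited lists give peak coordinates, a score, fold over control (a ratio), and p- and q-values as −log10. No read counts were used, since the lists hold none, and multi-copy DNA can be enriched or lost depending on how reads with several placements were handled. The 2 mock IP samples were used only through the fold.

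From these lists, overlaps were computed with bedtools 2.31.1 (at least 1 bp), TSSs were taken from all transcripts of GENCODE 44, and regions were matched to ribosomal DNA and to each other with blastn 2.17.0. Named regions, satellite-like ones apart, were ranked by the lower of the 2 folds: the 20 highest within 1 kb of a protein-coding TSS, the 8 highest farther from any TSS, the 8 with no other ZFP (1 was found), the 8 called for the most ZFPs, and members of the gene lists; others are marked where they were picked afterwards. The replicates are separate wells. Members and gene lists were chosen with earlier results of these data known. Calculations were checked on simulated intervals. Alternatives covered the q threshold, overlap rule, TSS distance, motif window and single replicates. A family of repeat regions, which includes 1 of the 8 called for the most ZFPs, is not reported here.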

Additional observations from a re-analysis of the deposited data

Results flagged for a closer look

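A peak on the ZNF593 ORF appeared in a library of another ZFP. MAZ replicate 1 had a peak at chr1:26170038-26170734 with a fold of 14.7, which began at the same base as the peaks of both ZNF593 libraries (folds 2318 and 2450). It was singled out because it lies in a list outside the ZNF593 libraries. The lists of CTCF replicate 1 (5.42), ZMAT3 replicate 1 (4.79), ZNF22 replicate 1 (3.95) and TRIM55 replicate 2 (2.00) also had a peak at the gene, none of which began at that base. MAZ replicate 2 had none. The part of this peak in the sharing between MAZ and ZNF593 was not tested, and the values by replicate are given above.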

How the results depend on the processing

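No paired analysis was possible because the ZNF593 lists are set against the mock IP within each list, and the tests take each ZFP as 1 unit, in which replicate numbers pair nothing. The labels give only a single nominal depth for all samples, so what depth limits in a single library cannot be given.

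Of 69 alternatives, 51 left the result the same, 14 moved it and 4 reversed it. A share was the same if it stayed on 1 side of the mean of the other ZFPs and of the p threshold. A count had to stay within a set ratio of the main count, and a motif share within the main interval. The share of peaks near a TSS turned from below to above the mean of the other ZFPs without replicate 1 (39.3%; range over single replicates 26.04 to 39.3%) and with satellite-like peaks left out (42.5% against 40.8%). The satellite-like share did so at q of at most 0.0001 (37.0% against 35.02%) and without replicate 2 (range 16.1 to 31.9%). No alternative brought a p under 0.05. The count of 348 regions became 215 without satellite-like regions. The 61 regions near a protein-coding TSS, ZNF593 and EEF1A1 included, became 27 at q of at most 0.0001 and 30 when the TSS had to be covered, and single lists held 119 to 394. Single lists held 12 to 40 of the gene list members in place of 6. Alternatives chosen after seeing the data were those without MAZ (2 regions with no other ZFP in place of 1), without TRIM55 and ZMAT5, without the libraries labelled U2AF1, the MAZ lists one by one (18 and 34 promoters in place of 36), the rule that another ZFP needs both replicates (28 in place of 1) and other identity limits for tandem repeats (25 at 60% and 19 at 80%, in place of 22).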
